A study of Saccharomyces cerevisiae with 36 samples.

Results

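The plasma membrane of budding yeast is energised by a proton pump, and a small set of transporters uses that gradient to move potassium and sodium. The transcripts of 8 such genes were followed across 18 groups of RNA-seq libraries. The genes were taken by systematic name from a count table of 6697 genes: PMA1 (YGL008C), PMA2 (YPL036W), PMP1 (YCR024C-A), PMP2 (YEL017C-A), TRK1 (YJL129C), TRK2 (YKR050W), NHA1 (YLR138W) and TOK1 (YJL093C). All 8 passed the filter on low counts, both in total RNA (6090 genes tested) and in pellet and soluble RNA (6141 genes tested).

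All cells were Saccharomyces cerevisiae W303 Ade+. The mutant strain carried the allele labelled Ded1_IDRm-mCherry (IDRm), and the control strain carried Ded1-mCherry (WT), so that the red fluorescent tag on the RNA helicase Ded1 is shared by both. What the allele changes, and whether a strain is 1 clone, is not given in the sources used here. Cultures grown at 30 °C were kept for 10 min at 30, 40 or 42 °C, and total RNA, an insoluble part (pellet) and a soluble part were sequenced, with 2 libraries in each group of strain, temperature and fraction and 36 in all. The protocols describe duplicate inoculation of each strain and a division of each main culture over the 3 temperatures, so that the 2 replicates are separate cultures and libraries of different temperatures share them. That libraries with the same replicate number come from the same culture is not stated.

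Library totals lay between 4934241 and 13730247 counts, and the lowest was that of WT 42 °C soluble replicate 2. Between replicates, log2 levels over 6077 genes correlated at 0.969 (WT 42 °C soluble) to 0.997. The heat marker HSP104, a protein disaggregase, was higher in total RNA at 40 than at 30 °C by 5.13 ± 0.16 on the log2 scale in IDRm and by 5.04 ± 0.16 in WT. Total RNA at 30 °C held 985 and 1174 CPM of DED1 in IDRm and 1993 and 1449 CPM in WT.

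Pma1 is a P-type ATPase that pumps protons out of the cell with the energy of ATP. It is among the most abundant proteins of the plasma membrane, and the gradient it makes drives nutrient uptake. Pma2 is a close paralog that is made at a low level. Pmp1 and Pmp2 are small proteolipids, single-span membrane peptides that associate with Pma1 and raise its activity. Trk1 is the high-affinity potassium importer and Trk2 its paralog of lesser activity in potassium uptake. Nha1 exchanges internal sodium or potassium for external protons, and Tok1 is a voltage-gated channel through which potassium leaves the cell.

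All 8 genes are single coding exons on the R64 reference, and none overlaps another annotated gene. PMA1 lies on the minus strand at chrVII:479910-482666, PMA2 on the plus strand at chrXVI:482843-485686, PMP1 and PMP2 on the minus strand at chrIII:162945-163067 and chrV:122798-122929. TRK1 (minus) lies at chrX:173599-177306, TRK2 (plus) at chrXI:527815-530484, NHA1 (plus) at chrXII:418437-421394 and TOK1 (minus) at chrX:254737-256812. The 2 proteolipid genes have coding sequences of 123 and 132 bases that are 91.9% identical over 123 aligned bases, with a longest shared run of 40. They are shown whole because the text sets their counts side by side. Reads that lie within a shared stretch could be assigned to either, while 0% of the 50-base stretches of PMP2 occur whole in PMP1. Capitals mark the bases that differ in the alignment, and the sequences are from RefSeq (R64), on the minus strand at the coordinates above.
PMP1: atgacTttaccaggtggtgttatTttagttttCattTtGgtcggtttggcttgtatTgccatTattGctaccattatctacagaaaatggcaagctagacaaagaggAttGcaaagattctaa
PMP2: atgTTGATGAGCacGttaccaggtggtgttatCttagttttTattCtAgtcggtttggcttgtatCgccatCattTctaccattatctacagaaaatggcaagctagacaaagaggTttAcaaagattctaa

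PMA1 and PMA2 are 82.8% identical over 2744 aligned coding bases, and the longest run they share has 74 bases. That run is shown with 15 bases on each side, in capitals, because a read of 50 bases from within it could be assigned to either gene. Of the words of this length, 1.36% in PMA2 also occur in PMA1, and 0% of its 75-base words do. The PMA1 stretch is chrVII:480334-480437 (minus strand) and the PMA2 stretch chrXVI:485159-485262 (plus strand), from RefSeq (R64). The read length is not given in the sources used here. TRK1 and TRK2 are 67.6% identical over 2632 aligned bases, with a longest shared run of 21.
PMA1: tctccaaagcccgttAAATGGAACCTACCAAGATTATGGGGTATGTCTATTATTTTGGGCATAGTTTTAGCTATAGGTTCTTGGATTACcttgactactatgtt
PMA2: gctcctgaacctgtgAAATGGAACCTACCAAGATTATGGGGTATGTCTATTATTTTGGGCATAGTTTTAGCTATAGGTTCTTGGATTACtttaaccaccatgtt

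Levels between genes are compared per kilobase of coding length (TMM-scaled CPM per kb), and levels of 1 gene between samples as CPM. Total RNA was scaled apart from pellet and soluble RNA. In total RNA of WT at 30 °C, the order was PMA1 (4180.0 ± 268 CPM per kb, mean ± SD, n = 2), PMP1 (382 ± 3.16), PMP2 (202 ± 25.6), NHA1 (103 ± 24.9), TOK1 (81.9 ± 6.39), TRK1 (46.5 ± 8.40), TRK2 (27.6 ± 3.17) and PMA2 (8.67 ± 0.564). NHA1 and TOK1 overlapped there, at 85.6 and 121 against 77.4 and 86.4 CPM per kb, and no other neighbours in this order did. PMA1 had the highest group mean in 18 of 18 groups, PMP1 was second in 17, and PMA2 was last in 16. In the other 2 groups, WT soluble RNA at 40 and 42 °C, TRK2 was last. PMA1 stood 482 times above PMA2 per kb in total RNA of WT at 30 °C and 219 times above it at 42 °C.

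What 10 min of heat did to these transcripts was asked first in total RNA. Log2 fold changes are given ± the standard error of the fit, and "called" means an adjusted p under 0.05 in edgeR's quasi-likelihood test with Benjamini-Hochberg adjustment over all genes of the contrast. Each library was scaled within itself, so a change is one in relative abundance within that RNA, and fewer cells with a transcript and less of it per cell cannot be told apart. In IDRm at 40 against 30 °C, 1 of the 8 genes was higher and 4 were lower, where 37.8% of all tested genes were higher and 32.6% lower. In WT the counts were 1 and 3, where 37.1% of genes were higher and 32.6% lower. At 42 against 30 °C, 1 was higher and 6 were lower in IDRm (all genes 33.7% higher, 31% lower), and 1 was higher and 3 were lower in WT (all genes 33.3% higher, 28.1% lower). The median log2 fold change of the 8 genes at 42 °C was -0.60 in IDRm and -0.33 in WT, beside 0.03 and 0.04 over all genes.

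**Figure D1:**
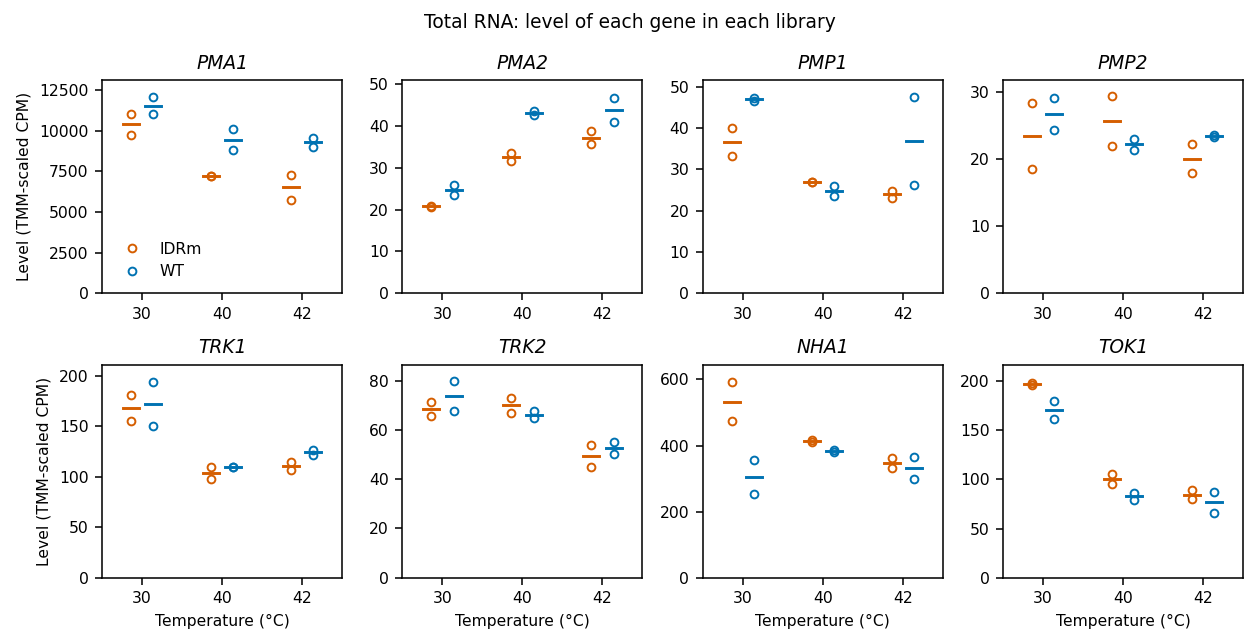
Level of each of the 8 genes in total RNA, in TMM-scaled CPM on a linear axis from 0, at 30, 40 and 42 °C. Circles are single libraries, bars the mean of 2, IDRm in orange and WT in blue. PMA2 was higher in every heated library than in every 30 °C library of its strain, and TOK1 lower.

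PMA1 fell with heat in IDRm. Its total RNA levels in IDRm were 11036 and 9735 CPM at 30 °C, 7195 and 7213 CPM at 40 °C, and 5762 and 7281 CPM at 42 °C. In WT they were 12046 and 11002 CPM at 30 °C, 8800.1 and 10113 CPM at 40 °C, and 8980.0 and 9572 CPM at 42 °C. In both strains the heated libraries lay below those at 30 °C without overlap. Against 30 °C the IDRm change was -0.53 ± 0.14 at 40 °C (adjusted p = 0.00363) and -0.67 ± 0.14 at 42 °C (adjusted p = 0.000673). The WT changes, -0.29 ± 0.14 and -0.31 ± 0.14, were not called (adjusted p = 0.0856 and 0.0676). They were called with DESeq2 (-0.35 and -0.38), with RLE size factors (-0.35 and -0.37) and without WT 30 °C total replicate 2 (-0.37 and -0.41), and the value at 40 °C also with library totals alone (-0.38).

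PMA2, the paralog, moved the other way and was the only 1 of the 8 genes that was called higher in heat in all 4 comparisons with 30 °C. Total RNA of IDRm held 20.9 and 20.7 CPM at 30 °C, 31.6 and 33.5 CPM at 40 °C and 35.6 and 38.7 CPM at 42 °C. Total RNA of WT held 25.8 and 23.5 CPM, 43.5 and 42.6 CPM, and 40.9 and 46.7 CPM at the same temperatures. The changes were 0.65 ± 0.13 at 40 °C and 0.84 ± 0.13 at 42 °C in IDRm, and 0.81 ± 0.13 and 0.83 ± 0.12 in WT. Across the 18 groups the log2 levels of PMA1 and PMA2 correlated at 0.43, while those of PMA1 and PMP1 correlated at 0.94. If PMA1 and PMA2 counts are added together as 1 gene, the sum follows PMA1, which holds nearly all of them, and the direction turns: -0.52 and -0.67 in IDRm, -0.28 and -0.31 in WT.

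The proteolipid gene PMP1 fell in WT at 40 °C and in IDRm at 42 °C. In IDRm it had 33.3 and 39.9 CPM at 30 °C, 27.0 and 26.8 CPM at 40 °C, and 23.2 and 24.9 CPM at 42 °C. In WT it had 47.2 and 46.7 CPM at 30 °C, 23.7 and 26.1 CPM at 40 °C, and 47.5 and 26.3 CPM at 42 °C. The 2 WT libraries at 42 °C thus differed widely, 1 at the 30 °C level and 1 at the 40 °C level. The WT change at 40 °C was -0.91 ± 0.20 (adjusted p = 0.000907), and the IDRm change at 42 °C was -0.61 ± 0.21 (adjusted p = 0.0176). The IDRm call was lost without IDRm 30 °C total replicate 2 (-0.50) or IDRm 42 °C total replicate 1 (-0.56). The IDRm change at 40 °C was not called (-0.44 ± 0.20), except with RLE (-0.49), library totals alone (-0.63), DESeq2 (-0.50), the 2 groups fitted alone (-0.48) or without IDRm 30 °C total replicate 1 (-0.61). The WT change at 42 °C was not called either (-0.35 ± 0.20), except without WT 42 °C total replicate 1 (-0.83).

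PMP2 counted alone was not called at either heat in either strain. Its changes against 30 °C were 0.13 ± 0.20 and -0.22 ± 0.20 in IDRm at 40 and 42 °C and -0.26 ± 0.20 and -0.18 ± 0.19 in WT. It had 144 to 308 counts per total library. At 30 °C the IDRm libraries held 18.5 and 28.4 CPM and the WT libraries 29.1 and 24.3 CPM, so that the strains overlapped. Without IDRm 30 °C total replicate 1, the IDRm value at 42 °C was -0.52 and was called. With PMP1 and PMP2 counts added as 1 gene, the sum was called lower in IDRm at 42 °C (-0.45) and in WT at 40 °C (-0.64).

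Both potassium importers fell, TRK1 at both heats and TRK2 at 42 °C. TRK1 had 181 and 156 CPM at 30 °C, 109.9 and 98.1 CPM at 40 °C, and 107 and 115 CPM at 42 °C in IDRm. In WT it had 150.3 and 194 CPM at 30 °C, 110.2 and 110.0 CPM at 40 °C, and 122 and 127 CPM at 42 °C. No heated library reached the lower 30 °C library of its strain. The changes at 40 and 42 °C were -0.69 ± 0.13 and -0.60 ± 0.13 in IDRm, and -0.65 ± 0.13 and -0.47 ± 0.13 in WT. Without WT 30 °C total replicate 2, the higher of the 2, the WT value at 42 °C was -0.31 and still called.

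The TRK2 values at 40 °C, 0.03 ± 0.12 in IDRm and -0.16 ± 0.12 in WT, were not called. At 42 °C it was lower by -0.47 ± 0.13 in IDRm, at 45.1 and 54.0 CPM against 65.8 and 71.2 CPM at 30 °C, and by -0.49 ± 0.12 in WT, at 50.1 and 54.9 CPM against 79.8 and 67.8 CPM. The IDRm call was lost without IDRm 42 °C total replicate 1 (-0.35). Between the heats, TRK2 was the only called gene of the 8 in IDRm at 42 against 40 °C (-0.50 ± 0.13), where 42.2% of all genes were called. That call was lost without IDRm 40 °C total replicate 1 (-0.43) or IDRm 42 °C total replicate 1 (-0.37).

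In WT at 42 against 40 °C, 46.9% of all genes were called and 2 of the 8 were, PMP1 (0.57 ± 0.21) and TRK2 (-0.33 ± 0.13). Each call held in 1 of the 4 fits that leave out a library, that without WT 42 °C total replicate 2 (PMP1 0.92, TRK2 -0.41). PMP1 was 0.50 and 0.64 without either WT 40 °C total library and 0.08 without WT 42 °C total replicate 1. TRK2 was -0.30 and -0.37 without either WT 40 °C total library and -0.27 without WT 42 °C total replicate 1. The PMP1 call was also lost with the 2 groups fitted alone (0.57) and with PMP1 and PMP2 counts added (0.36), and the TRK2 call with DESeq2 (-0.33) and library totals alone (-0.20).

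NHA1, the antiporter, fell with heat in IDRm, and its WT values were not called. IDRm libraries held 591 and 475 CPM at 30 °C, 416 and 409.6 CPM at 40 °C, and 331 and 363 CPM at 42 °C. WT libraries held 253 and 357 CPM at 30 °C, 386 and 379 CPM at 40 °C, and 299 and 365 CPM at 42 °C. The IDRm changes were -0.37 ± 0.16 (adjusted p = 0.0455) and -0.62 ± 0.16 (adjusted p = 0.00269), and the WT changes 0.33 ± 0.16 and 0.12 ± 0.16. The IDRm call at 40 °C was lost without IDRm 30 °C total replicate 1 (-0.24) and without either IDRm 40 °C total library (-0.39 and -0.36), and it was -0.56 without IDRm 30 °C total replicate 2. Without WT 30 °C total replicate 2, the higher of the 2, the WT value at 40 °C was 0.57 and was called.

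TOK1, the outward potassium channel, fell most of the 8 genes in all 4 comparisons. It had 197 and 196 CPM at 30 °C, 94.9 and 106 CPM at 40 °C, and 80.0 and 88.5 CPM at 42 °C in IDRm. In WT it had 179 and 161 CPM at 30 °C, 86.0 and 79.3 CPM at 40 °C, and 66.0 and 87.4 CPM at 42 °C. Heat thus brought its level down by nearly the same factor in both strains, by -0.97 ± 0.13 and -1.22 ± 0.13 in IDRm and by -1.04 ± 0.13 and -1.15 ± 0.13 in WT. At 42 °C, 5.8% of tested genes had a lower value than TOK1 in IDRm, and 3.3% in WT.

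**Figure D2:**
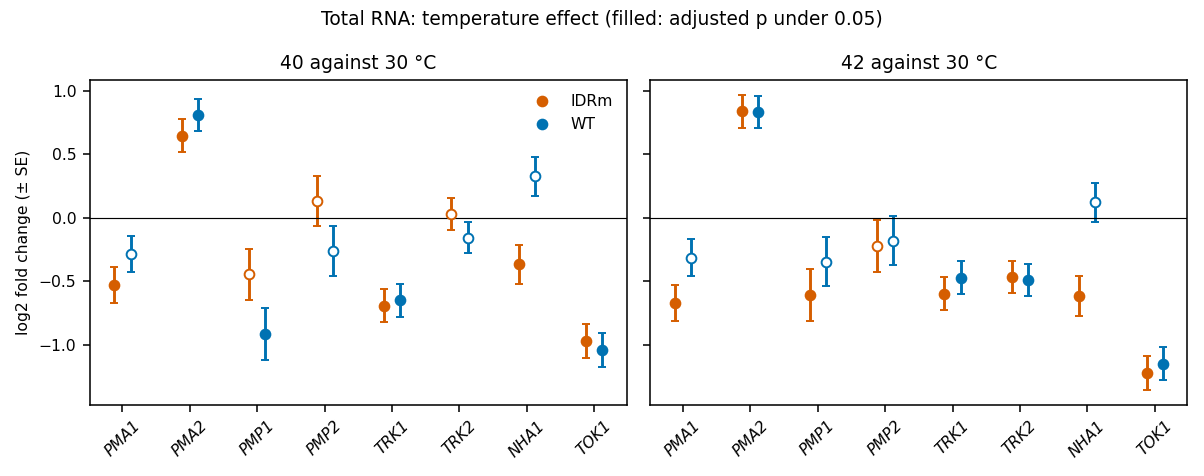
Log2 fold change of each gene in total RNA at 40 (left) and 42 °C (right) against 30 °C, IDRm in orange and WT in blue. Error bars are standard errors of the fit, and filled points have an adjusted p under 0.05. PMA2 lies above 0 in both strains, TOK1 lies near -1, and NHA1 lies below 0 in IDRm and above 0 in WT.

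The second comparison asks whether the allele changed these transcripts. At 30 °C, NHA1 was the 1 gene of the 8 that was called, where 12.9% of all genes were called. It was higher in IDRm by 0.80 ± 0.16 (adjusted p = 0.0045), and 96.4% of genes had a lower value. The call was lost without IDRm 30 °C total replicate 1 (0.62) and with the 2 groups fitted alone (0.79). The WT libraries behind it, 253 and 357 CPM, lay below the pellet and the soluble level of the same group, which held 686 and 752 CPM in pellets and 410.1 and 415 CPM in soluble RNA. In IDRm the 30 °C harvests held 845 and 860.0 CPM of NHA1 in pellets and 586 and 468 CPM in soluble RNA, with the total levels near the soluble ones.

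At 40 °C, 1 of the 8 genes was called between strains, where 11.1% of all genes were. It was PMA2, lower in IDRm by -0.40 ± 0.12 (adjusted p = 0.0465). The levels did not overlap, at 31.6 and 33.5 CPM in IDRm against 43.5 and 42.6 CPM in WT. The call was lost without either IDRm library (-0.37 and -0.45), without either WT library (-0.39 and -0.43), with RLE (-0.40), with no filter (-0.40), with DESeq2 (-0.40) and with the replicate block (-0.40). PMA1 was lower in IDRm by -0.39 ± 0.14 and was not called (adjusted p = 0.0892), except with the 2 groups fitted alone (-0.43).

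At 42 °C, 2 of the 8 genes were called between strains, where 23.4% of all genes were. PMA1 was lower in IDRm by -0.51 ± 0.14 (adjusted p = 0.0189), at 5762 and 7281 CPM against 8980.0 and 9572 CPM in WT, without overlap. The call was lost without IDRm 42 °C total replicate 1 (-0.35) and without either WT library (-0.55 and -0.46). PMP1 was lower in IDRm by -0.62 ± 0.21 (adjusted p = 0.0419). That difference depended on WT 42 °C total replicate 1, without which it was -0.13, and it was -0.98 without WT 42 °C total replicate 2. It was also not called without either IDRm library (-0.57 and -0.67), with library totals alone (-0.64), with the 2 groups fitted alone (-0.62) or with PMP1 and PMP2 counts added (-0.45).

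Whether heat acted differently in the 2 strains was tested as a difference of the temperature effects (IDRm minus WT). For 40 against 30 °C, 0 of the 8 genes were called by edgeR and by DESeq2, where edgeR called 1.64% of all genes. At an unadjusted p under 0.05, NHA1 alone passed (-0.69 ± 0.22, adjusted p = 0.134), and leaving out WT 30 °C total replicate 2 made it a call (-0.98). For 42 against 30 °C, 1 of 8 was called, NHA1 (-0.74 ± 0.22, adjusted p = 0.0416), where 11.8% of all genes were called. The call was lost without IDRm 30 °C total replicate 1 (-0.56), either IDRm 42 °C total library (-0.67 and -0.79), WT 30 °C total replicate 1 (-0.48) or WT 42 °C total replicate 2 (-0.57), and with the 4 groups fitted alone (-0.73). The PMA1 differences were -0.24 ± 0.20 and -0.36 ± 0.20, so that a call in IDRm and none in WT does not show that the strains differed.

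The third comparison asks which of these transcripts lay in the pellet rather than in the soluble RNA. The pellet-soluble difference is the log2 ratio of a gene's pellet level to its soluble level. At 30 °C it was above 0 and called for 7 of the 8 genes in IDRm, where 34.5% of all genes were, and for 8 of 8 in WT, where 33.4% were. At 40 °C the counts were 6 in IDRm (all genes 36.6%) and 7 in WT (37.9%), and at 42 °C 7 in IDRm (41.3%) and 7 in WT (42.4%). None of the 8 genes was called below 0 in any of the 6 states. The median of the 8 genes was 1.03, 1.03 and 1.73 in IDRm at 30, 40 and 42 °C and 1.38, 1.46 and 1.96 in WT, while the median of all genes lay between -0.02 and 0.16. Longer transcripts had larger values in general, with a Spearman correlation with coding length of 0.461 to 0.644 over 5781 genes, given as a description since all values come from the same libraries. PMP1, with a coding length of 123 bases, had 2.0 ± 0.18 in WT at 30 °C, above 98% of genes.

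TRK2 stood highest of the 8 genes in 6 of the 6 states. Its IDRm differences were 1.88 ± 0.15, 2.07 ± 0.15 and 2.41 ± 0.15 at 30, 40 and 42 °C, and its WT differences 3.04 ± 0.16, 3.18 ± 0.16 and 2.98 ± 0.17. In WT, at least 99.3% of genes had a lower value at each temperature. At 30 °C its pellets held 264 and 245 CPM and its soluble RNA 73.5 and 64.5 CPM in IDRm. In WT the pellets held 230.2 and 228 CPM and the soluble RNA 25.8 and 29.9 CPM. The soluble levels of IDRm were thus more than 2 times those of WT, while the pellet levels were close.

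That strain difference was tested with a contrast chosen after the values were seen (IDRm minus WT). It was called for TRK2 at 30 °C (-1.16 ± 0.21, adjusted p = 0.00478) and at 40 °C (-1.11 ± 0.21, adjusted p = 0.00924). At 30 °C TRK2 was the 1 of 8 genes called, where 1.09% of all genes were, and likewise at 40 °C, where 1.12% were. At 42 °C 0 of 8 were called by edgeR and by DESeq2 (all genes 6.95% by edgeR), with TRK2 at -0.57 ± 0.22 in edgeR (adjusted p = 0.121, unadjusted p = 0.0187, the only 1 of the 8 under 0.05). With library totals alone the 42 °C value was -0.84 and was called. The 30 °C call was lost without WT 30 °C soluble replicate 1 (-1.06). The 40 °C call was lost without WT 40 °C soluble replicate 1 (-0.94), IDRm 40 °C soluble replicate 1 (-0.92) or IDRm 40 °C pellet replicate 1 (-1.07). At 42 °C without WT 42 °C soluble replicate 1, NHA1 was called at -0.95, against -0.42 ± 0.30 with all libraries.

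**Figure D3:**
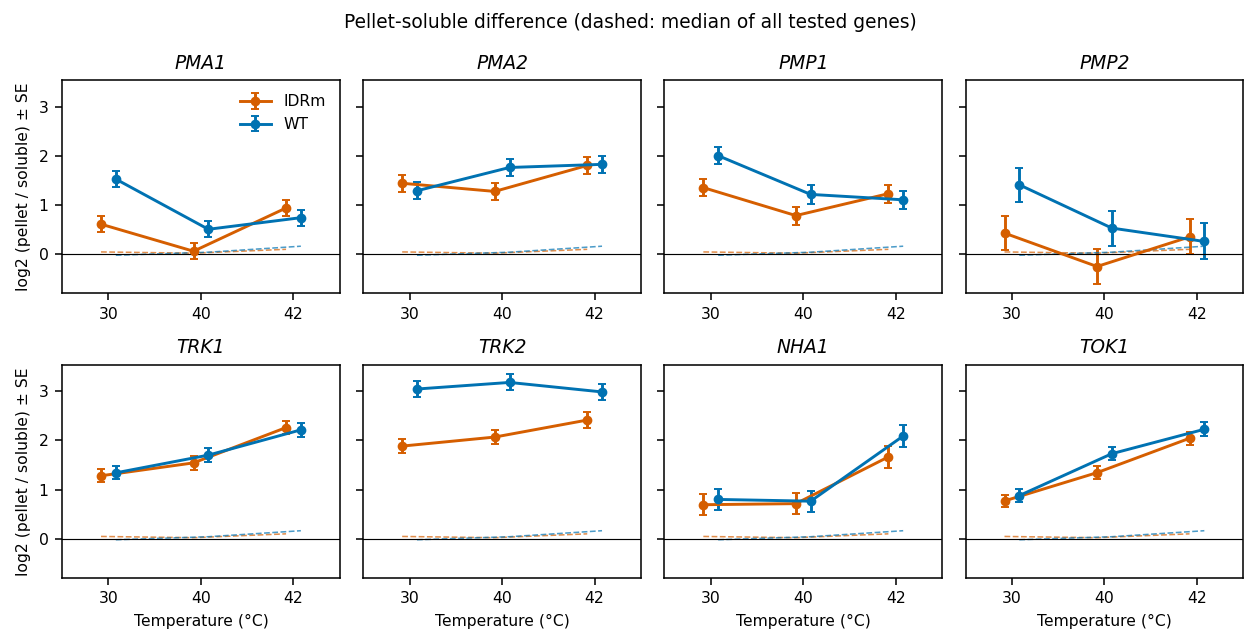
Pellet-soluble difference (log2 ratio of pellet to soluble level) of each gene at 30, 40 and 42 °C, IDRm in orange and WT in blue, with standard errors of the fit. Dashed lines are medians of all tested genes and lie near 0. TRK1, NHA1 and TOK1 lie higher at 42 than at 30 °C in both strains, PMA1 and PMP1 lie lower at 40 than at 30 °C, and TRK2 of WT lies above TRK2 of IDRm.

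PMA1 was pellet-rich at 30 °C and less so at 40 °C. Its pellets held 16189.9 and 16383 CPM at 30 °C, 8509.8 and 8421 CPM at 40 °C, and 10426 and 11492 CPM at 42 °C in IDRm. In WT they held 21930.1 and 22253 CPM at 30 °C, 10663 and 10379 CPM at 40 °C, and 13135 and 12294 CPM at 42 °C. Pellet levels were lower in IDRm than in WT at each temperature, and were lowest at 40 °C in both strains. Soluble RNA held 11092 and 10218 CPM, 8687 and 7520.3 CPM, and 5797 and 5621 CPM at 30, 40 and 42 °C in IDRm. In WT it held 6646 and 8681 CPM, 6345 and 8446 CPM, and 6401 and 8781 CPM, so that soluble PMA1 was lower at each higher temperature in IDRm and overlapped between temperatures in WT. The pellet-soluble differences were 0.61 ± 0.17, 0.06 ± 0.16 and 0.94 ± 0.17 in IDRm and 1.53 ± 0.17, 0.51 ± 0.16 and 0.74 ± 0.17 in WT.

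Of these, the IDRm value at 40 °C was not called, except with library totals alone (0.32). The WT value at 40 °C was lost without WT 40 °C soluble replicate 1 (0.32), and the WT value at 42 °C with its 2 groups fitted alone (0.66). The strain difference of PMA1 at 30 °C, -0.92 ± 0.23 (IDRm minus WT), was not called (adjusted p = 0.0624), but was with DESeq2 (-0.95), library totals alone (-0.98), the 4 groups fitted alone (-0.98) or without WT 30 °C soluble replicate 2 (-1.12).

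PMA2 was pellet-rich in all 6 states, at 1.44 ± 0.17, 1.28 ± 0.16 and 1.80 ± 0.17 in IDRm and 1.29 ± 0.17, 1.76 ± 0.17 and 1.83 ± 0.17 in WT. Its pellets ran from 47.2 to 92.4 CPM and its soluble RNA from 18.9 to 32.9 CPM over the 24 libraries, without overlap. PMP1 counted alone was pellet-rich in all 6 states too, at 1.35 ± 0.17, 0.79 ± 0.18 and 1.23 ± 0.19 in IDRm and 2.0 ± 0.18, 1.22 ± 0.18 and 1.11 ± 0.19 in WT. Its pellets held 107 and 109.5 CPM in IDRm at 30 °C and 149.6 and 144 CPM in WT. In the 16 heated libraries of pellet and soluble RNA it had between 15.9 and 56.2 CPM. At 30 °C the strain difference of PMP1 was -0.65 ± 0.24 and not called, except with the 4 groups fitted alone (-0.71).

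PMP2 counted alone was called only in WT at 30 °C (1.41 ± 0.35), where pellets held 47.2 and 57.8 CPM against 19.2 and 20.3 CPM in soluble RNA. The other 5 values ran from -0.25 ± 0.35 (IDRm at 40 °C) to 0.53 ± 0.35 (WT at 40 °C). Its soluble replicates differed widely, as in IDRm at 30 °C (33.7 and 15.5 CPM) and at 42 °C (24.2 and 12.1 CPM). Without IDRm 30 °C soluble replicate 1 the IDRm value at 30 °C was 1.08 and called, against 0.43 ± 0.34 with all libraries. The WT value at 40 °C was called with library totals alone (0.89) and with its 2 groups fitted alone (0.54). With PMP1 and PMP2 counts added, the sum was called pellet-rich in IDRm at 30 °C (1.08) and 42 °C (0.87) and in WT at 40 °C (0.92) and 42 °C (0.76), and was not called in IDRm at 40 °C (0.34).

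TRK1, NHA1 and TOK1 were pellet-rich in all 6 states. TRK1 had 1.28 ± 0.13, 1.54 ± 0.14 and 2.26 ± 0.14 in IDRm and 1.34 ± 0.13, 1.70 ± 0.14 and 2.21 ± 0.14 in WT. NHA1 had 0.69 ± 0.21, 0.71 ± 0.21 and 1.66 ± 0.22 in IDRm and 0.80 ± 0.21, 0.76 ± 0.21 and 2.09 ± 0.22 in WT. TOK1 had 0.77 ± 0.13, 1.34 ± 0.13 and 2.04 ± 0.14 in IDRm and 0.88 ± 0.13, 1.73 ± 0.13 and 2.23 ± 0.14 in WT. No strain difference was called for these 3 genes at any temperature. The NHA1 call in IDRm at 30 °C was lost without IDRm 30 °C soluble replicate 2 (0.54).

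The change of the pellet-soluble difference between temperatures is called its shift. Each library was scaled to its own total, with TMM factors over the 24 pellet and soluble libraries together. A shift is therefore relative to the other transcripts, and does not say whether more or less of a transcript was insoluble. For 40 against 30 °C, 1 of the 8 genes had a higher and 0 a lower shift in IDRm (all genes 13% and 8.87%), and 1 had a higher and 2 a lower shift in WT (all genes 13% and 7.98%). For 42 against 30 °C, 3 were higher and 0 lower in IDRm (all genes 23.5% and 13.7%), and 3 were higher and 2 lower in WT (all genes 23.6% and 14.7%). For 42 against 40 °C, 4 were higher in IDRm (all genes 11.2%) and 1 in WT (15.2%). The higher ones at 42 against 30 °C were TRK1, NHA1 and TOK1 in both strains.

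TOK1 had the highest shift of the 8 genes at 42 against 30 °C, 1.27 ± 0.18 in IDRm and 1.35 ± 0.19 in WT. Its soluble RNA held 46.4 and 47.4 CPM at 42 °C against 175 and 178 CPM at 30 °C in IDRm, and 31.0 and 43.2 CPM against 156 and 150.0 CPM in WT. Its pellets held 199 and 188 CPM against 292 and 310.3 CPM in IDRm, and 165 and 179 CPM against 282 and 279.6 CPM in WT. Both fractions were therefore lower at 42 °C, the soluble one more. At 40 °C the shift was 0.57 ± 0.18 in IDRm and 0.85 ± 0.18 in WT. The IDRm call was lost without either IDRm 30 °C pellet library (0.53 and 0.62), either IDRm 30 °C soluble library (0.59 and 0.56), IDRm 40 °C pellet replicate 2 (0.49) or IDRm 40 °C soluble replicate 2 (0.49), and with RLE (0.42) and DESeq2 (0.42).

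TRK1 shifted by 0.98 ± 0.19 in IDRm and 0.87 ± 0.19 in WT at 42 against 30 °C. Its soluble RNA held 55.1 and 62.7 CPM at 42 °C against 198 and 182 CPM at 30 °C in IDRm, and 59.8 and 53.5 CPM against 162 and 178 CPM in WT. At 40 °C its shifts of 0.26 ± 0.19 in IDRm and 0.36 ± 0.19 in WT were not called, the WT value except with library totals alone (0.57) or its 4 groups fitted alone (0.36). Soluble TRK1 was thus lower at 42 °C with no overlap in either strain.

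NHA1 had shifts of 0.02 ± 0.30 in IDRm and -0.04 ± 0.30 in WT at 40 °C, which were not called, and shifted at 42 °C by 0.97 ± 0.30 in IDRm and 1.29 ± 0.30 in WT. Its soluble RNA at 42 °C held 169 and 269 CPM in IDRm against 586 and 468 CPM at 30 °C, and 176 and 95.1 CPM in WT against 410.1 and 415 CPM. The pellets at 42 °C held 614 and 773 CPM in IDRm and 576 and 582 CPM in WT. The IDRm call was lost without IDRm 30 °C pellet replicate 1 (0.96), IDRm 30 °C soluble replicate 1 (0.80), IDRm 42 °C pellet replicate 2 (0.79) or IDRm 42 °C soluble replicate 1 (0.67), and with its 4 groups fitted alone (0.85). At 42 against 40 °C NHA1 was the 1 gene of the 8 called in WT (1.32 ± 0.31), a call lost with its 4 groups fitted alone (1.16).

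PMA1 and PMP1 had lower pellet-soluble differences in heated WT cells, relative to the other transcripts. At 40 against 30 °C the PMA1 shift was -1.02 ± 0.23 (adjusted p = 0.00406), and 3.2% of genes had a lower value. It was called in each of the 8 fits that leave out a library and in each other setting. The PMP1 shift was -0.79 ± 0.25 (adjusted p = 0.0318). The PMP1 call was lost without either WT 30 °C pellet library (-0.76 and -0.81), either WT 30 °C soluble library (-0.79 and -0.78), WT 40 °C pellet replicate 2 (-0.61) or WT 40 °C soluble replicate 2 (-0.65), with library totals alone (-0.58) and with PMP1 and PMP2 counts added (-0.90). The IDRm shifts, -0.55 ± 0.23 for PMA1 and -0.57 ± 0.25 for PMP1, were not called, except with RLE (-0.70 and -0.72), DESeq2 (-0.70 and -0.72) and the 4 groups fitted alone (-0.54 and -0.56).

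At 42 against 30 °C the WT shifts were -0.78 ± 0.23 for PMA1 (adjusted p = 0.012) and -0.90 ± 0.25 for PMP1 (adjusted p = 0.00889). The PMA1 call was lost without WT 42 °C pellet replicate 2 (-0.73) or WT 30 °C soluble replicate 1 (-0.60), with library totals alone (-0.43) and with the 4 groups fitted alone (-0.83). The PMP1 call was lost without WT 42 °C soluble replicate 2 (-0.64), the library with the fewest counts, and with library totals alone (-0.55). In IDRm the values were 0.33 ± 0.23 for PMA1 and -0.12 ± 0.25 for PMP1, and neither was called. PMP2, their companion, had -0.08 ± 0.50 in IDRm and -1.15 ± 0.50 in WT, not called, the WT value except with RLE (-1.39), DESeq2 (-1.41), its 4 groups fitted alone (-1.19), PMP1 and PMP2 counts added (-1.06) or without WT 42 °C soluble replicate 1 (-1.53).

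In IDRm between 40 and 42 °C, 4 of the 8 genes had a called higher shift. They were PMA1 (0.88 ± 0.23), TRK1 (0.72 ± 0.19), NHA1 (0.95 ± 0.30) and TOK1 (0.70 ± 0.18). With the 4 groups fitted alone, TRK1 (0.55), NHA1 (0.78) and TOK1 (0.52) were no longer called, and NHA1 was lost with library totals alone (0.89). Without IDRm 42 °C pellet replicate 2, PMA1 (0.81), TRK1 (0.48) and NHA1 (0.77) were lost. Without IDRm 40 °C pellet replicate 2, PMA1 (0.87), TRK1 (0.69) and NHA1 (0.95) were lost, and without IDRm 40 °C pellet replicate 1 NHA1 (0.95) and TOK1 (0.62) were. Without IDRm 40 °C soluble replicate 1, PMA1 (0.77), TRK1 (0.69), NHA1 (0.97) and TOK1 (0.61) were all lost. NHA1 was also lost without IDRm 40 °C soluble replicate 2 (0.92), and NHA1 (0.65) and TRK1 (0.63) without IDRm 42 °C soluble replicate 1.

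PMA2 and TRK2 had no called shift. The PMA2 shifts at 42 against 30 °C were 0.36 ± 0.24 in IDRm and 0.54 ± 0.24 in WT, and the WT value was called with library totals alone (0.88) or without WT 42 °C soluble replicate 2 (0.75). At 40 against 30 °C the PMA2 shift was -0.17 ± 0.23 in IDRm and 0.47 ± 0.23 in WT, where it was called with library totals alone (0.68). At 42 against 40 °C it was 0.53 ± 0.23 in IDRm, called without IDRm 42 °C pellet replicate 1 (0.69). The TRK2 shifts at 42 against 30 °C were 0.53 ± 0.21 in IDRm and -0.06 ± 0.22 in WT. The IDRm value was called with library totals alone (0.65), with the replicate block (0.52) and without IDRm 42 °C pellet replicate 1 (0.66) or IDRm 42 °C soluble replicate 2 (0.64). In WT at 42 against 40 °C, the shifts of TRK1 (0.51 ± 0.19) and TOK1 (0.50 ± 0.19) were not called, except with library totals alone (0.63 each) and with the replicate block (0.52 and 0.51), TRK1 without WT 42 °C soluble replicate 1 (0.60) and TOK1 without WT 42 °C soluble replicate 2 (0.74).

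Whether a shift differed between the strains was tested as IDRm minus WT. For 40 against 30 °C, 0 of the 8 genes were called by edgeR and by DESeq2, and so were 0% of all genes by edgeR, with 209 of 6141 genes and none of the 8 at an unadjusted p under 0.05. For 42 against 30 °C, 0 of 8 were called by edgeR (all genes 0.114%) and 1 by DESeq2, PMA1 at 1.18. Of all genes, DESeq2 called 93 of 6465 in that contrast and edgeR 7 of 6141. In edgeR PMA1 had 1.11 ± 0.33 and an adjusted p of 0.18, and PMA1 and PMP1 (0.77 ± 0.36) had an unadjusted p under 0.05 (0.00308 and 0.0432). Without WT 42 °C soluble replicate 1 the PMA1 value was 1.32 and was called.

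How much of each transcript lay in the insoluble part of the cell was estimated for each of the 12 harvests, by writing total RNA as a weighted sum of pellet and soluble RNA with 1 pair of weights for all genes. A harvest is taken here as the total, pellet and soluble libraries of 1 strain, temperature and replicate number, which assumes that the number marks the same cells. The 2 weights of a harvest were not held to add to 1. In WT at 30 °C they were 0.185 (pellet) and 0.646 (soluble) in replicate 1, and 0.167 and 0.755 in replicate 2. Over all mRNA the estimated insoluble share was 5.87 ± 2.87% in IDRm and 20.2 ± 2.92% in WT at 30 °C (mean ± SD, n = 2 each), 13.6 ± 0.595% and 23.8 ± 2.18% at 40 °C, and 20.6 ± 3.17% and 33.3 ± 5.48% at 42 °C. The share of a single gene inherits these weights, so the lower shares in IDRm described next are not independent between genes. Over the 8 genes and 12 harvests, the modelled total was 0.994 times the measured one at the median, with a range of 0.533 (PMP2, IDRm at 30 °C) to 1.67 (NHA1, WT at 30 °C).

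TRK2 had the largest mean estimated share of the 8 genes in each of the 6 states, at 19.2 ± 7.85%, 44.3 ± 5.87% and 61.2 ± 5.36% in IDRm at 30, 40 and 42 °C and 69.5 ± 5.52%, 78.2 ± 4.84% and 84.4 ± 2.75% in WT. Its harvests overlapped those of other genes in IDRm at 30 °C (13.7 and 24.8%, TRK1 9.04 and 18.5%) and 42 °C (57.4 and 65.0%, TRK1 56.2 and 60.9%). In WT at 42 °C they overlapped those of NHA1 (82.5 and 86.4% against 63.8 and 84.6%). TOK1 had 10.0 ± 4.6%, 32.4 ± 4.0% and 55 ± 7.83% in IDRm and 33.8 ± 2.97%, 56.9 ± 0.542% and 76.4 ± 3.31% in WT. TRK1 had 13.8 ± 6.69%, 35.4 ± 0.323% and 58.6 ± 3.31% in IDRm and 41.3 ± 5.50%, 56.4 ± 3.34% and 76.0 ± 6.91% in WT. NHA1 had 9.39 ± 3.20%, 23.6 ± 0.122% and 49.1 ± 10.6% in IDRm and 32.6 ± 2.10%, 40.4 ± 1.93% and 74.2 ± 14.7% in WT. In these 4 genes both strains stepped up at each temperature, as did the mean share of all mRNA. Relative to the other transcripts, the shift was 0.02 ± 0.30 in IDRm and -0.04 ± 0.30 in WT for NHA1 at 40 against 30 °C. For TRK2 in WT at 42 against 30 °C it was -0.06 ± 0.22.

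PMA1 had 9.04 ± 3.90%, 16.5 ± 1.59% and 36.4 ± 3.92% in IDRm and 44.7 ± 8.12%, 36.6 ± 7.48% and 54.1 ± 2.29% in WT. PMP1 had 14.1 ± 4.95%, 24.7 ± 2.60% and 41.6 ± 1.88% in IDRm and 52.6 ± 4.34%, 48.1 ± 10.2% and 59.9 ± 0.586% in WT. In WT the shares of PMA1 and PMP1 at 40 °C overlapped those at 30 °C. Those of all mRNA did not overlap by a narrow margin (25.3 and 22.27% against 22.25 and 18.1%), and did overlap when genes with 10 counts were let in (24.8 and 21.35% against 21.53 and 17.5%). At 42 °C the WT shares of PMA1 and PMP1 were above those at 30 °C, while their shifts were negative. PMP2 had 8.18 ± 1.20%, 14.7 ± 5.06% and 28.8 ± 3.14% in IDRm and 42.4 ± 1.23%, 36.6 ± 0.016% and 45.8 ± 4.15% in WT. PMA2, unlike them, stepped up in both strains, as did the mean share of all mRNA. It had 14.8 ± 5.46%, 31.6 ± 3.16% and 50.8 ± 1.81% in IDRm and 40.5 ± 3.89%, 57.5 ± 6.07% and 71.1 ± 3.43% in WT. No harvest of IDRm reached the share of a WT harvest at the same temperature in any of the 8 genes. The share of all mRNA was apart in the same way at each temperature, as at 30 °C (3.84 and 7.90% in IDRm, 18.1 and 22.25% in WT). Since each gene inherits those weights, this is not read as a property of the 8 genes.

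**Figure D4:**
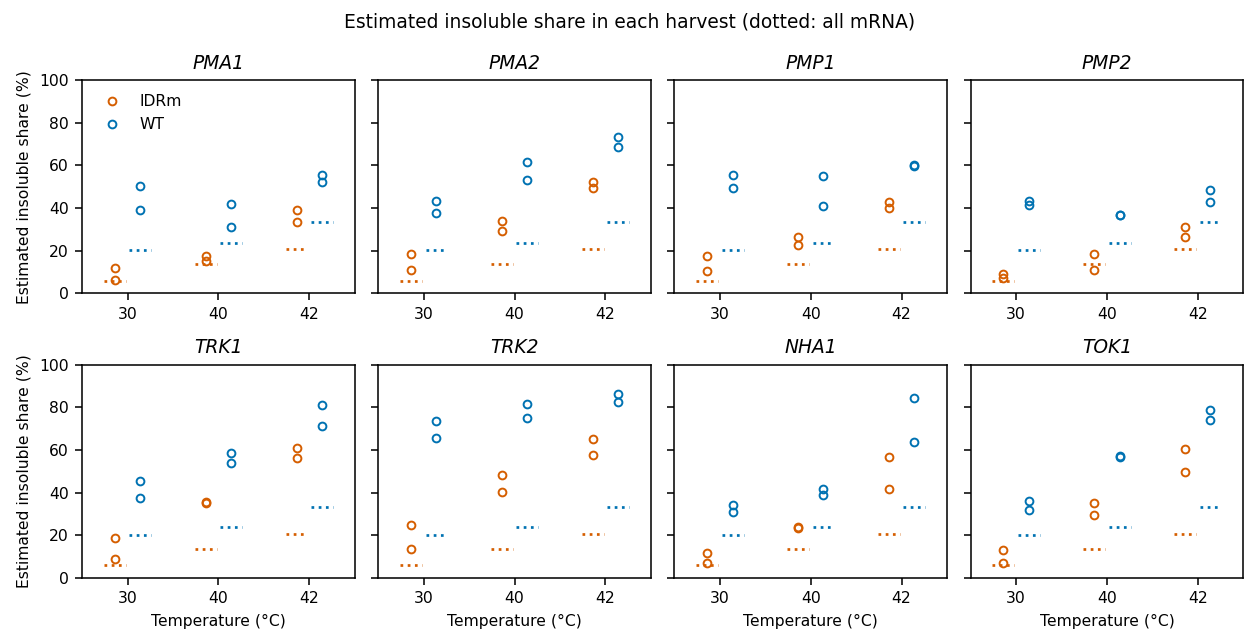
Estimated insoluble share of each transcript, in percent, in each of the 12 harvests, IDRm in orange and WT in blue. Dotted lines are the mean share of all mRNA in that state. WT harvests lie above IDRm harvests at each temperature, as the dotted lines do. TRK2 of WT has the highest mean at each temperature, with harvests at 65.6 to 86.4%. PMA1, PMP1 and PMP2 of WT do not step up between 30 and 40 °C.

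The genes that act on these transporters, and other transport genes, were read from 4 lists. Among 17 regulators of Pma1 and Trk1, 7 were higher and 5 lower in total RNA of IDRm at 42 against 30 °C (median 0.15), and 6 were higher and 4 lower in WT (median -0.02). Over all genes, 33.7% were higher and 31% lower in IDRm and 33.3% and 28.1% in WT, near the shares of this list. HSP30, a plasma membrane heat shock protein that lowers Pma1 activity, had 53486 and 46804 counts at 42 °C in IDRm against 94 and 39 at 30 °C. In WT it had 42725 and 47704 counts against 281 and 834. The change was 9.88 ± 0.51 in IDRm (10.67 without IDRm 30 °C total replicate 1) and 6.42 ± 0.42 in WT (7.15 without WT 30 °C total replicate 2). At 40 °C in WT it was 6.98 ± 0.43 (7.73 without WT 30 °C total replicate 2). Pellet and soluble RNA of WT at 30 °C differed more widely between replicates than total RNA, with 67 and 1568 HSP30 counts in pellets and 38 and 1817 in soluble RNA. HAL5, a kinase that stabilises Trk1, rose by 2.86 ± 0.15 in IDRm at 42 °C, and in WT by 3.20 ± 0.15 at 40 °C and 2.96 ± 0.15 at 42 °C. HRK1, a kinase that activates Pma1, rose by 1.71 ± 0.28 in IDRm at 42 °C, and in WT by 2.5 ± 0.27 and 2.23 ± 0.27.

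The other P-type ATPases, relatives of Pma1, resembled the 8 genes in the pellet. Of 14 listed, 13 were tested, and all 13 were pellet-rich at 30 °C in IDRm (median 1.21, all genes 34.5% called) and in WT (median 1.36, all genes 33.4%). In total RNA at 42 °C 3 were higher and 8 lower in IDRm (all genes 33.7% and 31%), and 3 were higher and 6 lower in WT (33.3% and 28.1%). PMC1, the calcium pump of the vacuole, rose by 2.17 ± 0.14 in IDRm and by 2.51 ± 0.14 in WT. The lipid flippases DNF1 and DNF2 fell, at -1.06 ± 0.10 and -1.05 ± 0.14 in IDRm and -0.99 ± 0.10 and -1.05 ± 0.14 in WT. At 40 °C in WT, PMC1 (2.44 ± 0.14) and the copper pump CCC2 (1.01 ± 0.12) rose and DNF2 fell (-1.21 ± 0.14). In the shift at 42 against 30 °C, 10 were higher in IDRm (all genes 23.5%) and 7 in WT (23.6%), among the WT ones DNF2 (1.09 ± 0.20), DNF1 (0.87 ± 0.21) and PMR1 (0.86 ± 0.18), the calcium and manganese pump of the Golgi.

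Among 16 other cation transporters, 11 were pellet-rich at 30 °C in IDRm (all genes 34.5%) and 13 in WT (33.4%), and none was called below 0. In total RNA at 42 °C 5 were higher and 8 lower in IDRm (all genes 33.7% and 31%), and 5 were higher and 7 lower in WT (33.3% and 28.1%). KHA1, a putative potassium-proton antiporter and the neighbour of TOK1 at 294 bases on the same strand, rose by 1.43 ± 0.11 in IDRm at 42 °C and in WT by 1.87 ± 0.11 at 40 °C and 1.48 ± 0.11 at 42 °C, while TOK1 fell. The calcium channel gene CCH1 fell by -1.25 ± 0.10 in IDRm at 42 °C and in WT by -1.26 ± 0.10 and -1.15 ± 0.10. VNX1, a vacuolar cation-proton exchanger, rose by 1.87 ± 0.14 in IDRm at 42 °C. In WT the iron permease gene FTR1 rose at 42 °C (1.14 ± 0.13), and the zinc importer gene ZRT1 fell at 40 °C (-1.33 ± 0.15). In the shift at 42 against 30 °C, 8 were higher and 0 lower in IDRm (all genes 23.5% and 13.7%), and 7 were higher and 2 lower in WT (23.6% and 14.7%). Those in WT included the magnesium importer gene ALR1 (1.92 ± 0.19), the calcium channel gene MID1 (1.12 ± 0.18) and FTR1 (-1.13 ± 0.27).

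The proton pump of the vacuole, the V-ATPase, went the other way in the pellet. Coding length, which correlated with the pellet-soluble difference at 0.531 in IDRm and 0.461 in WT at 30 °C, was not taken into account for any list. Its part in these differences was not tested. Of its 15 subunit genes, 12 were lower in pellets than in soluble RNA at 30 °C in IDRm and 1 higher (median -1.47), where 33.7% of all genes were lower and 34.5% higher. In WT 11 were lower and 2 higher (median -1.39), where 34.8% of all genes were lower and 33.4% higher. In total RNA 1 was higher and 1 lower at 42 °C in IDRm (VMA6 at 0.27 ± 0.11, VPH1 at -0.65 ± 0.12), and 1 was higher and 4 lower in WT, beside 33.7% and 31% of all genes in IDRm and 33.3% and 28.1% in WT. Those in WT included VMA1 (-0.70 ± 0.15), VMA10 (0.59 ± 0.12) and VMA16 (-0.52 ± 0.17), and at 40 °C VMA16 (-0.79 ± 0.17), VPH1 (-0.32 ± 0.12) and VMA10 (0.31 ± 0.12). In the shift of WT at 42 against 30 °C, STV1, the Golgi form of the membrane subunit a, was higher (1.52 ± 0.16), and VMA3 (-0.88 ± 0.27) and VMA5 (-0.81 ± 0.24) were lower. The same shift was 1.60 ± 0.24 for SAT4, a kinase of the Trk1 pathway, 1.39 ± 0.22 for AST2, a paralog of the Pma1 targeting factor AST1, and 1.07 ± 0.41 for GLC7, the catalytic subunit of protein phosphatase 1.

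Some of these list calls were lost when a single library was left out. VMA6 was not called without either IDRm 30 °C total library (0.28 and 0.22) or IDRm 42 °C total replicate 2 (0.19). VMA16 at 42 °C lost its call when WT 30 °C total replicate 1 (-0.26) or WT 42 °C total replicate 1 (-0.38) was left out. At 40 °C VMA10 was lost without any 1 of the 4 WT libraries (0.25 to 0.32), and VPH1 without WT 30 °C total replicate 1 (-0.30) or either WT 40 °C total library (-0.34 and -0.36). Without WT 42 °C soluble replicate 2 the shifts of VMA3 (-0.38), VMA5 (-0.49) and GLC7 (0.52) were lost. VMA3 was also lost without WT 42 °C pellet replicate 2 (-0.82), VMA5 without WT 30 °C pellet replicate 1 (-0.72). GLC7 was also lost without any 1 of the 4 WT 30 °C libraries or the 2 WT 42 °C pellet libraries (1.04 to 1.10), and was 1.98 and called without WT 42 °C soluble replicate 1.

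Genes with the most similar pattern were found by the Pearson correlation of log2 group means over the 18 groups, among 3943 protein-coding genes averaging at least 32 CPM. The 18 groups share cultures, and total RNA was scaled apart from pellet and soluble RNA, so the values are a description. The 3 nearest genes to PMA1 were PMP1 (0.94), YCR024C-B (0.94) and SSM4 (0.93). The nearest to PMP1 were YCR024C-B (0.99), POM152 (0.96) and CWH43 (0.96). YCR024C-B lies 79 bases from PMP1 on the same strand, so reads of the 2 transcripts may not be told apart. The nearest to TRK1 were ITR2, CSF1 and BUD3 (each 0.99), and the nearest to NHA1 were ASI1, MNT3 and RRN9 (each 0.96). Among pairs of the 8 genes, TRK1 and TOK1 correlated at 0.96, and PMA2 and PMP2 least, at 0.38.

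The 500 bases upstream of each coding start were searched on both strands for 4 short motifs. The stress response element CCCCT occurred upstream of PMA2 (2 matches), PMA1, TRK2 and NHA1 (1 each), beside 34.1% of 6000 windows of the same length. The heat shock element core, GAANNTTC or TTCNNGAA, occurred upstream of TRK1 (1 match) and TRK2 (2 matches), beside 35.2% of windows. The RPG box ACCCATACA, a form of Rap1 site, had 0 matches upstream of the 8 genes, beside 1.1% of windows. The Gcr1 motif CTTCC had 6 matches each upstream of PMP1 and PMP2, 3 upstream of PMA2, 2 each upstream of TRK2 and NHA1, 1 upstream of TRK1 and 0 upstream of PMA1 and TOK1, beside 66.1% of windows with a match. Matches of different motifs may overlap, and a match is a description of the sequence only.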

How the data were processed

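RNA-seq counts were analysed from 36 libraries of yeast total, pellet and soluble RNA, 2 in each of 18 groups of strain, temperature and fraction. The deposited table holds raw whole-number counts per gene, per the values and the labels, for 6697 genes. Per the labels' protocols, hot acid phenol was used on frozen, filter-collected cells, followed by rRNA depletion. The submitters' processing notes name bcl2fastq 2.19.1, STAR 2.5.2b and the build R64, and the sources used here do not give the read counter, its use of strand or the read length. Without strand, reads of a gene and of an antisense partner cannot be told apart. Of the gene names, 683 (0.277% of counts) had no match in the RefSeq annotation.

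Counts were fitted in edgeR 4.0.16 (R 4.3.3, limma 3.58.1) with the robust quasi-likelihood test, TMM scaling and the expression filter at a minimum count of 10, separately for 12 total libraries (6090 genes, 6 residual degrees of freedom) and 24 pellet and soluble libraries (6141 genes, 12). P-values were adjusted by Benjamini-Hochberg over all genes of a contrast and called under 0.05. There were 25 planned contrasts and 3 added after values were seen. The alternatives were DESeq2 1.42.0, RLE size factors, library totals alone, no filter, only the groups of the contrast, a replicate block, summed paralog counts and leaving out each library. The insoluble share was fitted on the genes that reached 50 counts in each of the 3 libraries of a harvest. Sequences were read with Biopython 1.88. The statistical scripts were tested on simulated data.

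The 8 genes and the 4 gene lists were chosen with earlier results of these data known. The genes named from the lists are the up to 3 called ones with the largest change in each of 4 comparisons, together with HSP30 counts. The protocols describe duplicate cultures, and p-values measure the spread between these pairs. Total RNA libraries held 7920500 to 11268739 counts, with at least 144 on each of the 8 genes. In pellet and soluble libraries the gene counts went as low as 69 (TRK2, WT 42 °C soluble replicate 2) and 75 (PMP2, IDRm 42 °C soluble replicate 2).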

Additional observations from a re-analysis of the deposited data

Results flagged for a closer look

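In total RNA, the effect of 42 against 30 °C on NHA1 was called different between the 2 strains, by the test of the difference itself. NHA1 was the 1 gene of the 8 that was called, near the 11.8% of all genes that were. The call was lost with the 4 groups fitted alone (-0.73). The log2 change at 42 against 30 °C in IDRm less that in WT was -0.74 ± 0.22 (adjusted p = 0.0416 in edgeR's quasi-likelihood test), and the groups behind it are -0.62 ± 0.16 in IDRm and 0.12 ± 0.16 in WT. It remained called in 3 of 8 fits that leave out a library. The WT 30 °C levels behind it, 253 and 357 CPM, are below both the pellet and the soluble levels of the same group, and the part of this in the result was not tested.

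The pellet-soluble difference of TRK2 was smaller in IDRm than in WT at 30 and 40 °C, again by the test of the difference. At 42 °C the same test did not call it (-0.57 ± 0.22, adjusted p = 0.121 in edgeR's quasi-likelihood test). IDRm minus WT was -1.16 ± 0.21 at 30 °C (adjusted p = 0.00478) and -1.11 ± 0.21 at 40 °C (adjusted p = 0.00924), in a contrast added after values were seen. The calls remained in 7 and in 5 of 8 fits that leave out a library.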

How the results depend on the processing

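Of 89 called results of the 8 genes, 65 remained called when any 1 library was left out. Under all other settings apart from summed paralogs 73 remained, and 63 remained in both respects, again apart from summed paralogs. Counts of called genes that moved by more than 1.5 times are given here, and the cause was not tested. The counts over all genes moved as well, so these are not read as a property of the 8 genes. With DESeq2, 160 of 6465 genes were called for the strain difference in pellet against soluble RNA at 30 °C, from 67 of 6141. For IDRm against WT at 40 °C, 625 of 6447 genes were called, from 678 of 6090. With DESeq2 the count became 2 for the IDRm shift at 40 against 30 °C (from 1), 2 for the strain difference in pellet against soluble RNA at 30 °C (from 1), 1 for the strain difference in shift at 42 °C (from 0), 0 for IDRm against WT at 40 °C (from 1) and 1 for WT total RNA at 42 against 40 °C (from 2). With only the groups of each contrast, the shift counts became 3 and 1 in IDRm (40 against 30 °C and 42 against 40 °C, from 1 and 4) and 5 and 0 in WT (from 3 and 1). The strain difference in pellet against soluble RNA at 30 °C became 3 (from 1), IDRm against WT became 0, 2 and 1 at 30, 40 and 42 °C (from 1, 1 and 2), the total strain difference at 42 °C 0 (from 1) and WT total RNA at 42 against 40 °C 1 (from 2). RLE gave 2 for the IDRm shift at 40 °C and 0 for IDRm against WT at 40 °C, and no filter gave 0 for the second. Library totals alone gave 3 for the WT shift at 42 against 40 °C, 2 and 1 for the strain difference in pellet against soluble RNA at 30 and 42 °C, 1 for IDRm against WT at 42 °C and 1 for WT total RNA at 42 against 40 °C.

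Leaving out 1 library gave 0 to 1 called genes for the IDRm shift at 40 against 30 °C, 0 to 5 for that at 42 against 40 °C and 1 to 2 for the WT shift at 42 against 40 °C. It gave 0 to 2, 0 to 1 and 0 to 1 for the strain difference in pellet against soluble RNA at 30, 40 and 42 °C, and 0 to 1 for the strain difference in shift at 42 °C. In total RNA it gave 0 to 1 for IDRm at 42 against 40 °C, 0 to 2 for WT at 42 against 40 °C, 0 to 1, 0 to 0 and 0 to 1 for IDRm against WT at 30, 40 and 42 °C, and 0 to 1 for each of the 2 strain differences in temperature effects. In fits without 1 library of a pair, the lone library is assumed to vary like the other groups.

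The replicate block gave 3 called genes for the WT shift at 42 against 40 °C, 0 for IDRm against WT at 40 °C and 1 for WT total RNA at 42 against 40 °C, where TRK2 was no longer called (-0.33). Of 224 results 219 kept their call, 3 gained one and 2 lost one. Same-numbered libraries deviated together at correlations of -0.183 to 0.029 in total RNA and -0.118 to 0.623 in pellet and soluble RNA, with 0.374 in WT at 30 °C and 0.623 in IDRm at 42 °C the only values above 0.1, so that the numbers were not taken to pair samples in the tests. The insoluble shares do join libraries by number, as an assumption.

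Adding PMA1 and PMA2 counts reversed PMA2 in total RNA (-0.52 and -0.67 in IDRm, -0.28 and -0.31 in WT) and in the WT shifts at 40 and 42 °C (-1.01 and -0.78), and left PMA2 in IDRm at 40 °C not pellet-rich (0.07). Adding PMP1 and PMP2 counts ended 4 calls of PMP1 and gave PMP2 7 calls, as set out beside those results. With minimums of 10 or 200 counts, an estimated share of the 8 genes moved by more than its SD in 8 cases. NHA1 in IDRm and PMP2 and TOK1 in WT, each at 40 °C, are counted there under both minimums. The largest of these moves was PMP1 in WT at 42 °C (61.5%, against 59.9%). Library totals alone moved the median of all genes by up to 0.472 (WT pellet against soluble RNA at 42 °C) and RLE by up to -0.235 (WT shift at 42 °C).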
